A study of Mus musculus with 12 samples.

Results

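Complement C1q is built from 3 chains, encoded by C1qa, C1qb and C1qc, and these 3 genes, of 22180 genes with a probe of 1 gene symbol, are described here in fat and liver of mice depleted of CD301b-positive mononuclear phagocytes. Each chain had 1 such probe, so the brightest probe per gene was also the single one. They were chosen by their measured levels on these arrays, high in wild-type fat, lower in Mgl2-DTR fat and the other way in liver, so those levels and differences are given as a description, with no test. Tests are given for other genes only.

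C1q is the recognition molecule of the classical complement pathway. Its chains each carry a collagen-like stalk and a globular head, assemble together in the secreted molecule, and bind immune complexes and dying cells. Most complement proteins are made by hepatocytes, while macrophages and dendritic cells are the main source of C1q. In fat, C1q chains are widely used as markers of resident macrophages, and in liver of Kupffer cells.

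RNA was measured on mouse gene arrays in 6 groups of 2 arrays each, 12 in all. They were epididymal fat of Mgl2-DTR and of wild-type mice, inguinal fat of Mgl2-DTR and of wild-type mice, and liver of Mgl2-DTR and of wild-type mice. All mice were male, on the C57BL/6N background and matched for age, and all, wild-type mice included, received diphtheria toxin at 500 ng per dose every 3 days until harvest on day 10. In Mgl2-DTR mice the receptor for the toxin is driven by Mgl2, which encodes CD301b, and the toxin acts on any cell that uses that gene, macrophages and dendritic cells among them. Deposited values are normalized log2 levels, and a difference of 1 is a 2-fold difference. Only 2 arrays per group limit the precision, and nothing beyond the word mouse in the labels says that they came from separate animals.

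The labelled tissues carried their markers. All 6 adipocyte markers with a probe exceeded 5.71, the median level used as a filter on dim genes, in both depots, and all 6 hepatocyte markers did so in liver. Mgl2 was at 4.25 and 4.19 in Mgl2-DTR epididymal fat against 7.46 and 7.22 in wild-type, and at 4.12 and 4.72 in Mgl2-DTR inguinal fat against 7.07 and 7.36 in wild-type. In liver Mgl2 was at 4.59 and 4.03 in Mgl2-DTR and at 4.36 and 4.12 in wild-type mice, under the filter level in both. Some arrays stood apart. Skeletal muscle markers averaged 10.04 in inguinal Mgl2-DTR replicate 1 and 10.44 in wild-type replicate 2, against 6.74 and 6.78 in the other array of each genotype. Epididymal duct markers averaged 11.12 in epididymal Mgl2-DTR replicate 2 and at most 4.22 elsewhere, and macrophage markers averaged 10.51 in epididymal wild-type replicate 1, the highest of the 12 arrays.

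The 3 genes lie side by side on mouse chromosome 4, in the order C1qb, C1qc, C1qa, with no other RefSeq gene of GRCm38.p6 between them. Promoter sequence, from 250 bases before to 50 bases after the start, was taken from RefSeq for 2 chains, C1qb at chr4:136886151-136886450 and C1qc at chr4:136892865-136893164, both on the minus strand of GRCm38.p6. C1qa is named only. They are shown because the 3 genes had similar differences, and capitals mark matches to 6 searched motifs.
C1qb: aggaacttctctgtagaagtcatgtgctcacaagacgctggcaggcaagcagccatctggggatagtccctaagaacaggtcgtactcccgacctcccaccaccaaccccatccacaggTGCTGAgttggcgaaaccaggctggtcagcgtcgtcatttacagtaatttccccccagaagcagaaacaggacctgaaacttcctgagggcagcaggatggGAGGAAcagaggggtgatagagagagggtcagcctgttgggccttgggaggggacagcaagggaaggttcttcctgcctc
C1qc: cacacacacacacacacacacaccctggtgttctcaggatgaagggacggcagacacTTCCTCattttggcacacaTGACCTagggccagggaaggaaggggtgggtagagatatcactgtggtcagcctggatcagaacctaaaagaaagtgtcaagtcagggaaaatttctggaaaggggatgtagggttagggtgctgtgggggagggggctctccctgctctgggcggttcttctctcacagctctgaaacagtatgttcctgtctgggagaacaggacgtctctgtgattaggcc

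Both strands were searched, and no 2 matches overlapped. The PU.1 core GAGGAA was found in both promoters, at -30 to -25 from the start of C1qb and, on the opposite strand, at -193 to -188 from that of C1qc. The same letters occur in 28.3% of all 32851 promoters of this length. The short MAF motif TGCTGA was found in C1qb alone, at -131 to -126, and occurs in 19.5% of promoters. C1qc held the short nuclear receptor motif AGGTCA on the opposite strand, at -174 to -169, a motif of 16.3% of promoters. The interferon response element (3.44% of promoters), the C/EBP motif TTGCNNAA (10.8%) and the TATA box TATAAA (13.6%) were in neither window. These matches are letters in a window and not measured binding.

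In epididymal fat all 3 chains were lower in Mgl2-DTR than in wild-type mice, by about the same amount. C1qa, the A chain, was at 8.85 and 8.69 on the Mgl2-DTR arrays, against 10.02 and 9.78 on the wild-type arrays. C1qb, the B chain, was at 10.55 and 10.27 in Mgl2-DTR fat and at 11.83 and 11.37 in wild-type fat. C1qc, the C chain, was at 8.08 and 7.90 in Mgl2-DTR fat and at 9.43 and 8.96 in wild-type fat. Both Mgl2-DTR arrays were below both wild-type arrays for each chain, and wild-type replicate 1 was the highest array each time. The differences were -1.12 for C1qa, -1.19 for C1qb and -1.20 for C1qc on the log2 scale (limma SE 0.18, 0.21 and 0.17). They amount to 2.18-fold, 2.28-fold and 2.30-fold lower levels, and differ between the chains by 0.078 at most. Across all 12710 genes tested, the genotypes lay apart with Mgl2-DTR lower for 14.7% in this tissue.

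Inguinal fat showed the same direction with a larger difference. C1qa stood at 7.86 and 8.41 in Mgl2-DTR mice, against 10.06 and 10.05 in wild-type mice. C1qb stood at 9.01 and 9.54 in Mgl2-DTR mice, against 11.15 and 11.29 in wild-type mice. C1qc stood at 7.08 and 7.10 in Mgl2-DTR mice, against 9.03 and 9.21 in wild-type mice. Single Mgl2-DTR arrays minus single wild-type arrays gave -2.20 to -1.64 for C1qa, -2.28 to -1.61 for C1qb and -2.13 to -1.92 for C1qc, so no chain overlapped. The changes were -1.92 for C1qa (SE 0.18), -1.94 for C1qb (SE 0.21) and -2.03 for C1qc (SE 0.17), or 3.78-fold, 3.84-fold and 4.08-fold lower, and spread over 0.11 between chains. For C1qa and C1qb the muscle-bearing Mgl2-DTR replicate 1 was the lower of its pair by 0.55 and 0.53, while the C1qc arrays differed by 0.026. The muscle-bearing wild-type replicate 2 was the higher of its pair for C1qb by 0.15 and for C1qc by 0.19, and the C1qa arrays differed by 0.013. The genotypes lay apart with Mgl2-DTR lower for 10.4% of all genes in inguinal fat, and higher for 36.5%. The median change of all genes tested here was 0.10, and against that shift the chains were lower still.

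In liver the chains went the other way. C1qa was at 9.19 and 9.23 in Mgl2-DTR liver, against 8.87 and 8.91 in wild-type liver. C1qb was at 10.58 and 10.55 in Mgl2-DTR liver, against 9.92 and 9.82 in wild-type liver. C1qc was at 8.59 and 8.43 in Mgl2-DTR liver, against 7.91 and 7.90 in wild-type liver. Both Mgl2-DTR arrays exceeded both wild-type arrays for each chain, as they did for 19.2% of all genes tested in liver. The differences were 0.32 for C1qa (SE 0.18), 0.70 for C1qb (SE 0.21) and 0.61 for C1qc (SE 0.17), or 1.25-fold, 1.62-fold and 1.52-fold higher. Here the chains were less alike than in fat. The difference between any Mgl2-DTR and any wild-type array was 0.29 to 0.35 for C1qa, below the 0.64 to 0.76 of C1qb and the 0.52 to 0.69 of C1qc. The probe for Mgl2 was under the filter level in liver, so depletion itself cannot be followed there by this gene.

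**Figure D1:**
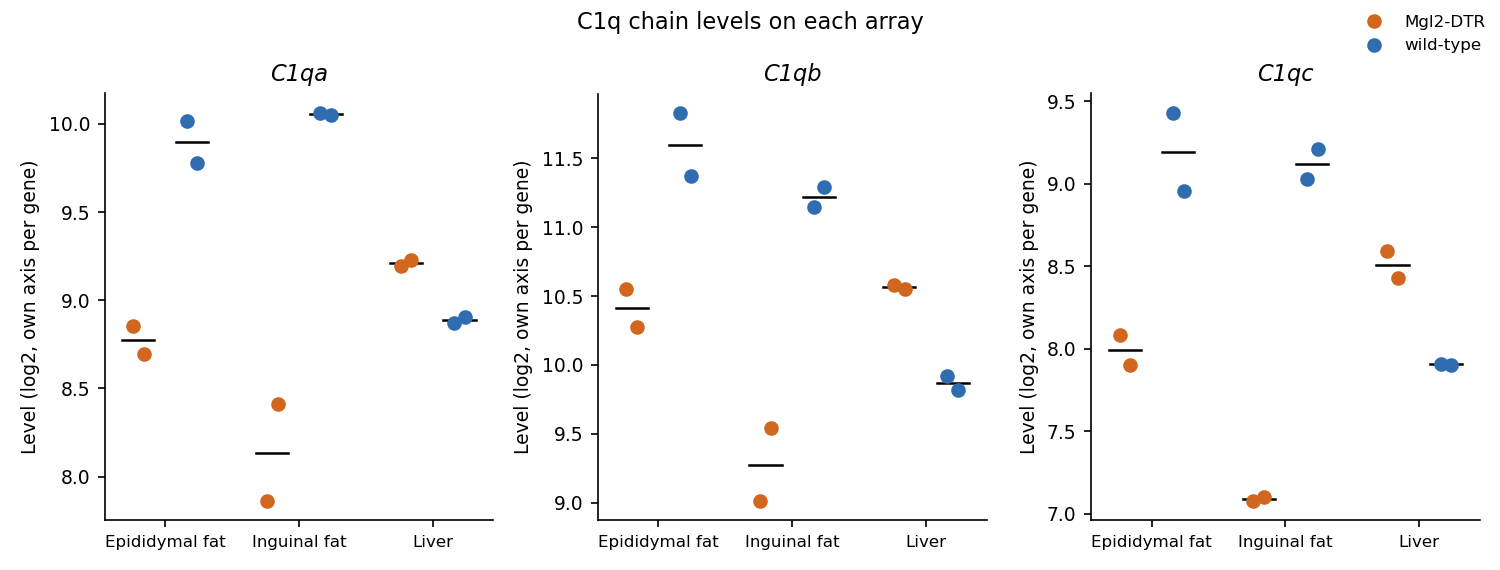
Log2 level of C1qa, C1qb and C1qc on each of the 12 arrays, with tissue on the horizontal axis, Mgl2-DTR arrays in orange left of wild-type arrays in blue, and the mean of each pair as a black line. Each panel has its own axis. In both fat depots the orange points lie below the blue ones, and in liver above them.

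The order of the 6 group levels was nearly shared. Wild-type fat of both depots held the 2 highest levels of every chain and Mgl2-DTR inguinal fat the lowest. C1qa averaged 10.06 ± 0.0093 in wild-type inguinal and 9.90 ± 0.17 in wild-type epididymal fat, followed by 9.21 ± 0.023 in Mgl2-DTR and 8.89 ± 0.022 in wild-type liver, 8.77 ± 0.11 in Mgl2-DTR epididymal fat and 8.14 ± 0.39 in Mgl2-DTR inguinal fat (SD, n = 2 each). C1qb ran from 11.60 ± 0.32 in wild-type epididymal fat through 11.22 ± 0.10, 10.57 ± 0.018, 10.41 ± 0.20 and 9.87 ± 0.069 in wild-type inguinal fat, Mgl2-DTR liver, Mgl2-DTR epididymal fat and wild-type liver to 9.28 ± 0.37 in Mgl2-DTR inguinal fat. C1qc kept the order of C1qb, from 9.19 ± 0.33 to 7.09 ± 0.018. Several neighbours in these orders were not separated by more than 2 pooled SDs. The wild-type depots were such a pair for every chain (differences 0.16, 0.38 and 0.074 for C1qa, C1qb and C1qc). So were wild-type liver and Mgl2-DTR epididymal fat for C1qa (0.12) and C1qc (0.088), and Mgl2-DTR liver and Mgl2-DTR epididymal fat for C1qb (0.15). The C1qc arrays of these neighbours overlapped in both cases, and those of C1qa and C1qb did not.

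The chains also followed each other array by array. After each gene's own 12-array mean was subtracted, the distance between 2 chains (root mean square over the 12 arrays) was 0.19 for C1qa and C1qc, 0.20 for C1qb and C1qc and 0.27 for C1qa and C1qb, on the log2 scale. Among the 12709 other tested genes, C1qc was the nearest to C1qa, and C1qa the nearest to C1qc. For C1qb the nearest was Folr2, a folate receptor of resident macrophages, at 0.19, ahead of C1qc. The widest spread between chains on 1 array was 0.48, in epididymal wild-type replicate 1, where C1qb was highest and C1qa lowest relative to their means. All 3 chains come from the same RNA on each array, so this likeness includes whatever differed between the samples.

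Macrophage markers lay in the same directions as the chains, and fewer macrophages and less C1q RNA per macrophage cannot be told apart in bulk tissue. The 15 markers, among them Csf1r, which encodes the receptor of a growth factor for macrophages, and Adgre1, which encodes F4/80, averaged 8.84 to 9.17 in Mgl2-DTR and 9.48 to 10.51 in wild-type epididymal fat. In inguinal fat they averaged 7.77 to 8.64 in Mgl2-DTR and 9.08 to 9.21 in wild-type mice, and in liver 8.44 to 8.48 in Mgl2-DTR and 7.80 to 7.97 in wild-type mice. All 15 were lower in Mgl2-DTR epididymal fat, with a median change of -0.96, 14 were lower in inguinal fat with a median of -0.97, and none was lower in liver, where the median was 0.58. The median over all genes tested was 0.0049, 0.10 and 0.011 in these tissues. By limma 0 of 15 passed in any tissue, where 0.0315%, 0.197% and 0.0708% of all genes were called in epididymal fat, inguinal fat and liver, while 9, 8 and 1 markers had an unadjusted p under 0.05 (60%, 53.3% and 6.67%, against 6.98%, 6.93% and 5.53% of all genes). Csf1r came closest in fat, with changes of -1.53 (SE 0.35; adjusted p = 0.522) in epididymal and -2.10 (SE 0.35; adjusted p = 0.0817) in inguinal fat, and Lyz2, a lysozyme of macrophages, followed at -1.02 (adjusted p = 0.688) and -1.42 (adjusted p = 0.198). In liver the smallest p-values belonged to Lyz2 at 0.71 (adjusted p = 0.867) and Csf1r at 0.75 (adjusted p = 0.942).

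Set against this list, the chains were farthest from the markers in inguinal fat. No test of that distance is given. The mean of the 3 chains differed by -1.17 in epididymal fat and the mean of the markers by -0.99, which leaves -0.18. In inguinal fat the chains differed by -1.96 and the markers by -0.95, which leaves -1.02. In liver the difference was 0.54 for the chains and 0.58 for the markers. Per array, the chains minus the markers, each gene centred on its 12-array mean, were at -0.32 and -0.82 in Mgl2-DTR and at 0.46 and 0.44 in wild-type inguinal fat, with no overlap. In epididymal fat they were at -0.55 and -0.42 in Mgl2-DTR and at -0.62 and 0.019 in wild-type mice, and those overlap. In liver the values were 0.44 and 0.43 in Mgl2-DTR against 0.39 and 0.54 in wild-type mice. The inguinal distance depended on the markers taken. With Csf1r, Adgre1 and Cd68 alone it was -0.49, and in epididymal fat it was then 0.043.

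**Figure D2:**
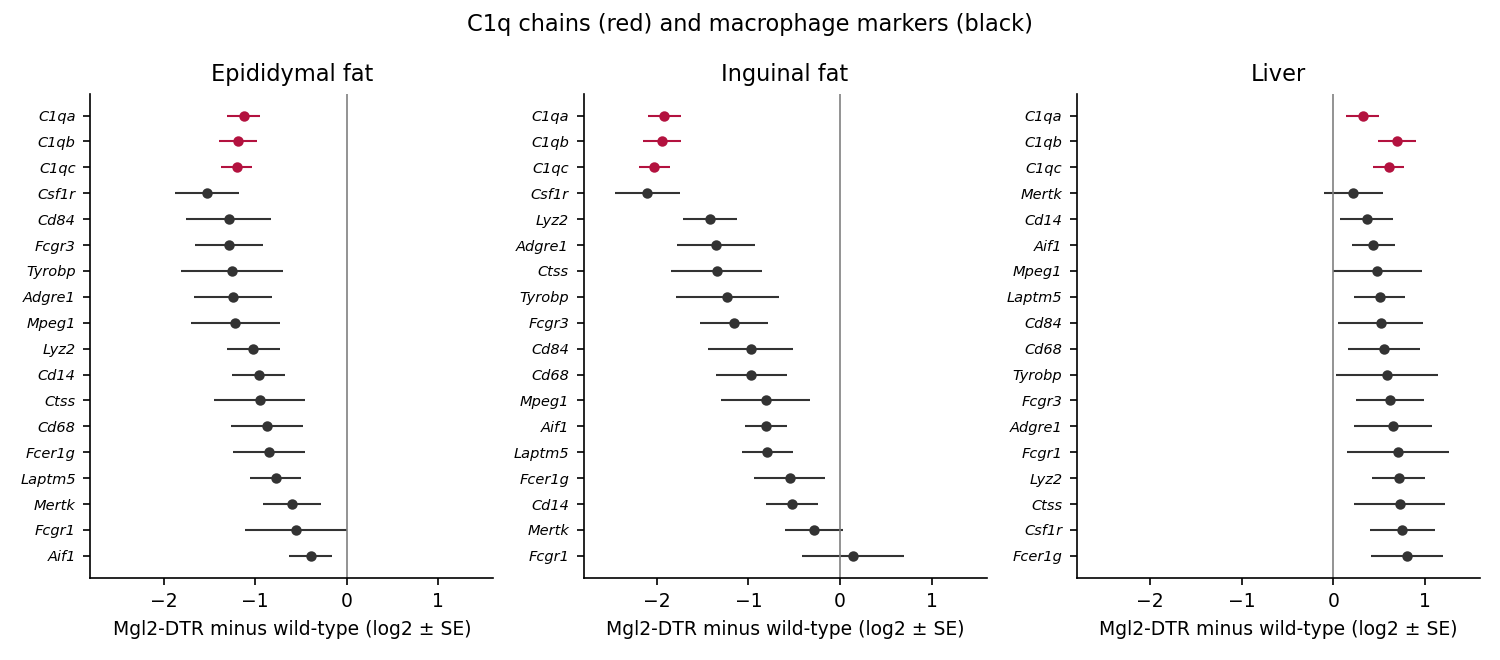
Log2 difference of Mgl2-DTR from wild-type mice in each tissue, with its limma SE, for the 3 C1q chains in red and 15 macrophage markers in black, ordered by size. In each tissue the chains lie within the markers' range, and in inguinal fat they lie at its low end, near Csf1r.

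Where replicate arrays of fat disagreed, the chains differed less than the markers. In wild-type epididymal fat the 2 arrays differed by 0.39 in the mean of the chains and by 1.03 in the mean of the markers. In Mgl2-DTR inguinal fat they differed by 0.37 in the chains and by 0.87 in the markers. Mgl2-DTR epididymal fat gave 0.21 for the chains and 0.33 for the markers. In Mgl2-DTR liver the order was reversed, at 0.052 for the chains and 0.037 for the markers.

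**Figure D3:**
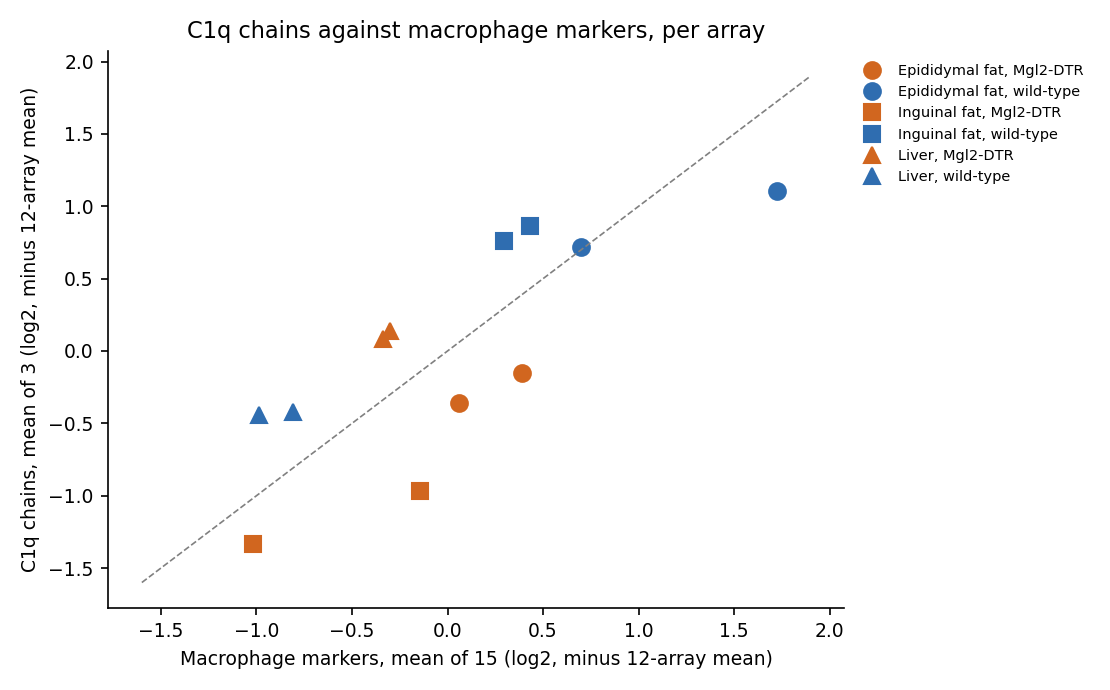
Mean of the 3 C1q chains against the mean of 15 macrophage markers on each array, in log2 units after subtraction of each gene's 12-array mean, with Mgl2-DTR in orange, wild-type in blue, and a dashed line where both are equal. Both Mgl2-DTR inguinal arrays lie below the line and both wild-type inguinal arrays above it.

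Leaving out 2 of the arrays of a depot changed the size of the chain differences. It could not reverse their direction, since the genotypes did not overlap for any chain in either depot. Without the 2 muscle-bearing inguinal arrays, which leaves 1 array per genotype there, the inguinal changes were -1.65 for C1qa, -1.61 for C1qb and -1.92 for C1qc. Without epididymal wild-type replicate 1 and Mgl2-DTR replicate 2, which also leaves 1 per genotype, the epididymal changes were -0.92, -0.82 and -0.87 in the same order. No test is given for these.

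Kupffer cell markers, like the chains, were higher in Mgl2-DTR liver. The 5 markers averaged 9.32 to 9.43 in Mgl2-DTR and 8.38 to 8.71 in wild-type liver, with all 5 higher and a median change of 0.73. Marco, a scavenger receptor, was higher by 1.30 (SE 0.20; limma adjusted p = 0.0863) and Vsig4, a complement receptor of resident macrophages, by 0.89 (SE 0.26; adjusted p = 0.664), so that 0 passed while 4 had an unadjusted p under 0.05. In fat at most 1 of the 5 exceeded the filter level. Markers of monocytes and neutrophils averaged 5.15 and 5.36 in Mgl2-DTR against 4.93 and 5.002 in wild-type liver. These averages were under the filter level, which 3 of the 8 genes exceeded in liver. Ly6c2, a monocyte surface marker, had 1.09 there (SE 0.30; adjusted p = 0.588), Plac8 0.74 and Csf3r 0.23. Ccr2 (0.18) and Cxcr2 (-0.064) overlapped between genotypes. The monocyte and neutrophil list averaged 5.66 to 5.83 in Mgl2-DTR and 5.57 to 5.66 in wild-type epididymal fat. Its members went both ways there, with Plac8 at 1.54 (limma adjusted p = 0.688), Ly6c2 at 0.81 and Csf3r at -0.85 (adjusted p = 0.710 each). Of 5 tested, 0 passed and 3 had an unadjusted p under 0.05 (60%, against 6.98% of all genes). In inguinal fat it averaged 5.76 to 6.55 in Mgl2-DTR and 5.97 to 6.00 in wild-type mice. Dendritic cell markers averaged 6.21 to 6.36 in Mgl2-DTR and 6.83 to 7.21 in wild-type epididymal fat, 6.07 to 6.24 in Mgl2-DTR and 6.74 to 6.78 in wild-type inguinal fat, and 5.71 to 5.89 in Mgl2-DTR and 5.71 to 5.81 in wild-type liver. That list holds Mgl2 itself, at -3.12 in epididymal and -2.796 in inguinal fat, the single member called. Of its other tested members Itgax had -1.67 and -0.72, Cd209a -0.023 and -0.31, and Zbtb46 -0.048 and 0.15 in the same depots. The part of these cells in the C1q levels was not tested.

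The rest of the complement system was read beside the chains. Of 55 other genes of the cascade, its regulators and its receptors, 44 could be tested, and 0 of these were called in epididymal fat, inguinal fat or liver between the genotypes by limma, with 10, 4 and 3 at an unadjusted p under 0.05. These are 22.7%, 9.09% and 6.82% of the 44, and the last 2 shares are near those of all genes given above. Their median change was 0.0054 in epididymal fat, 0.082 in inguinal fat and 0.077 in liver, close to the medians of all genes given above. A gene was tested if it exceeded the filter level in any 1 tissue. Several, such as Hc (7.57), Cfi (7.30), C9 (7.13) and Mbl1 (5.66), were far higher in wild-type liver than in the wild-type depots. Genes that entered through liver may be too dim in fat to differ, so the calls and medians in fat say little about them. None of the C1r and C1s proteases that C1q carries passed the test. C1s1 had -0.17 in epididymal fat, -0.24 in inguinal fat and 0.18 in liver (SE 0.23 each), the signs of the chains, and its arrays overlapped between genotypes in every tissue. C1rb was lower without overlap in both depots and overlapped in liver. C1ra was at 6.74 and 6.94 in Mgl2-DTR and at 6.18 and 6.76 in wild-type epididymal fat, and at 6.91 and 6.43 in Mgl2-DTR and 6.96 and 6.77 in wild-type inguinal fat. C4b, whose product C1s cleaves, stood at 11.94 and 11.89 in Mgl2-DTR and 11.27 and 11.94 in wild-type epididymal fat. Of the 9 classical pathway genes tested, the smallest p-values in epididymal fat were those of C1rb (-0.47, SE 0.20; adjusted p = 0.710) and Serping1, the C1 inhibitor (0.38, SE 0.19; adjusted p = 0.725). In inguinal fat they were those of C1rl (0.25; adjusted p = 0.778) and C1rb (-0.31; adjusted p = 0.779), and in liver those of C4a (-0.98, SE 0.36; adjusted p = 0.773) and C1rb (-0.39; adjusted p = 0.985). C1ra with C1rb, and C4a with C4b, are near-identical pairs whose probes may share signal. The genes C1ra, C1s1 and C4b were picked for their place in the cascade after their values were seen.

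Some complement genes that macrophages themselves make had values in the direction of the chains, and none passed. Cfp encodes properdin, which stabilises the alternative pathway convertase, and had -0.95 in epididymal fat (SE 0.28; adjusted p = 0.688), -1.31 in inguinal fat (SE 0.28; adjusted p = 0.236) and 0.54 in liver (SE 0.28; adjusted p = 0.989). Fcna, the ficolin of the lectin pathway, had -0.80 (SE 0.24; adjusted p = 0.688), -1.05 (SE 0.24; adjusted p = 0.297) and 0.34 in the same order. All 7 tested receptors were lower in both depots and higher in liver, with medians of -1.08, -0.57 and 0.51. In epididymal fat Vsig4 had -1.87 (SE 0.26; adjusted p = 0.0865) and Itgax, a chain of complement receptor CR4, -1.67 (SE 0.51; adjusted p = 0.688). In inguinal fat Vsig4 had -0.88 (adjusted p = 0.583), under the filter level in both genotypes, and C5ar1, the C5a receptor, -0.86 (SE 0.48; adjusted p = 0.768), and in liver C5ar1 had 0.78 (SE 0.48). Some other members of the alternative and regulator lists went the other way in epididymal fat. Cfi, a protease that inactivates C3b and C4b, had 1.23 (SE 0.29; adjusted p = 0.522). Susd4 had 1.66 (SE 0.51) and Clu, clusterin, 1.23 (SE 0.38), with an adjusted p of 0.688 each. Epididymal duct markers were high in Mgl2-DTR replicate 2 of that tissue, and the part of that array in these differences was not tested. All 7 tested terminal genes were below 0 in epididymal fat (median -0.28), and 2 of 7 in inguinal fat (median 0.12). By limma 6 of the 7 were higher in wild-type liver than in the wild-type depots. These may be too dim in fat to differ, so their signs there say little about complement. All 6 hepatocyte markers were also below 0 in epididymal fat (median -0.72), and a link between the lists was not tested.

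Proteins that bind C1q and genes of its domain family gave 0 calls in any of the 3 tissues. Among 6 tested genes of C1q-binding proteins, Lair1, an inhibitory collagen receptor, was at -0.96 (SE 0.40; adjusted p = 0.710) in epididymal and -0.84 (SE 0.40; adjusted p = 0.743) in inguinal fat, and C1qbp at -0.28 (adjusted p = 0.966) in liver, with 1, 0 and 0 of the 6 at an unadjusted p under 0.05. The C1q domain family shares the globular head and includes the adipocyte hormone adiponectin. Its 14 tested genes had medians of 0.16 in epididymal fat, 0.12 in inguinal fat and -0.089 in liver, with 0, 0 and 1 at an unadjusted p under 0.05. Adipoq itself was at 11.18 and 11.16 in Mgl2-DTR inguinal fat and at 11.08 and 10.94 in wild-type, a limma difference of 0.16 (SE 0.37; adjusted p = 0.946).

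Of the 9 tested genes for factors linked to C1q transcription in macrophages, 0 passed in any tissue and 1, 1 and 2 had an unadjusted p under 0.05. Maf, a factor of resident macrophages, was at 9.08 and 8.80 in Mgl2-DTR against 9.41 and 9.35 in wild-type epididymal fat. It stood at 9.09 and 9.03 in Mgl2-DTR against 9.62 and 9.55 in wild-type inguinal fat, and at 8.74 and 8.78 in Mgl2-DTR against 8.49 and 8.32 in wild-type liver. Its changes of -0.44 (SE 0.13; adjusted p = 0.688), -0.53 (SE 0.13; adjusted p = 0.415) and 0.35 (SE 0.13; adjusted p = 0.803) had the signs of the chains at a smaller size, with no overlap between genotypes. Cebpa, which encodes C/EBP alpha, had signs opposite to the chains, with overlapping arrays in epididymal fat (0.13, SE 0.22). It was at 9.33 and 8.99 in Mgl2-DTR against 9.79 and 9.82 in wild-type liver, a difference of -0.64 with the smallest p of the list there (SE 0.22; adjusted p = 0.758), and had 0.36 in inguinal fat (SE 0.22; adjusted p = 0.775). Spi1, which encodes PU.1, was at -0.72 in epididymal fat (SE 0.41; adjusted p = 0.764), where the arrays overlapped. It had -0.49 in inguinal fat (SE 0.41; adjusted p = 0.820) and 0.50 in liver (SE 0.41), with no overlap in those tissues. These are also the signs of the chains.

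Genes beside the C1q cluster on the chromosome gave no call. Of the 3 nearest genes on each side with a probe of 1 symbol, only Kdm1a and Zbtb40 were bright enough to test. Kdm1a had 0.036 in epididymal fat, 0.11 in inguinal fat and 0.15 in liver (SE 0.15 each; limma adjusted p = 0.983 and 0.894 in the depots). Zbtb40 had -0.033, 0.30 and 0.090 (SE 0.17 each; adjusted p = 0.986 and 0.764 in the depots). Tex46, Lactbl1, Epha8 and Gm13003 lay under the filter level in every wild-type tissue.

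Genes of most similar pattern are named by their closeness alone. By distance over the 12 arrays after each gene's mean was subtracted, the 10 nearest to the mean of the 3 chains were Folr2 at 0.21, Cfp at 0.26, Csf1r at 0.28, Slc9a9 at 0.30 and Ly86, a partner of a Toll-like receptor homologue, at 0.30, then Gm5431, Ms4a8a, Ebi3, Gbgt1 and Aoah at 0.34 to 0.37. When tissue means were subtracted, so that only differences within a tissue counted, H2-Ab1, H2-Aa and H2-Eb1 came first at 0.10, 0.12 and 0.14. These encode chains of MHC class II, which presents peptides to CD4 T cells. Folr2, Wfdc17, Slc9a9, Abca9, Gfra2, Ly86 and Csf1r followed at 0.16 to 0.23. Both lists shared 4 of their 10 genes, Csf1r, Folr2, Ly86 and Slc9a9.

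H2-Ab1 tracked the chains closely within tissues. It was at 10.73 and 10.36 in Mgl2-DTR and 11.92 and 11.54 in wild-type epididymal fat. In inguinal fat it was at 9.83 and 10.22 in Mgl2-DTR and 11.90 and 11.85 in wild-type mice, and in liver at 10.22 and 10.15 in Mgl2-DTR and 9.56 and 9.28 in wild-type mice. Its changes of -1.18, -1.85 and 0.76 lie beside the chain means of -1.17, -1.96 and 0.54. C1qb was nearer to H2-Ab1 (0.073) than to either other chain by this measure, and C1qa nearer to H2-Eb1 (0.12). Folr2 had -1.20, -2.43 and 0.65. Both genes share arrays and RNA with the chains, and the measure is a description.

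**Figure D4:**
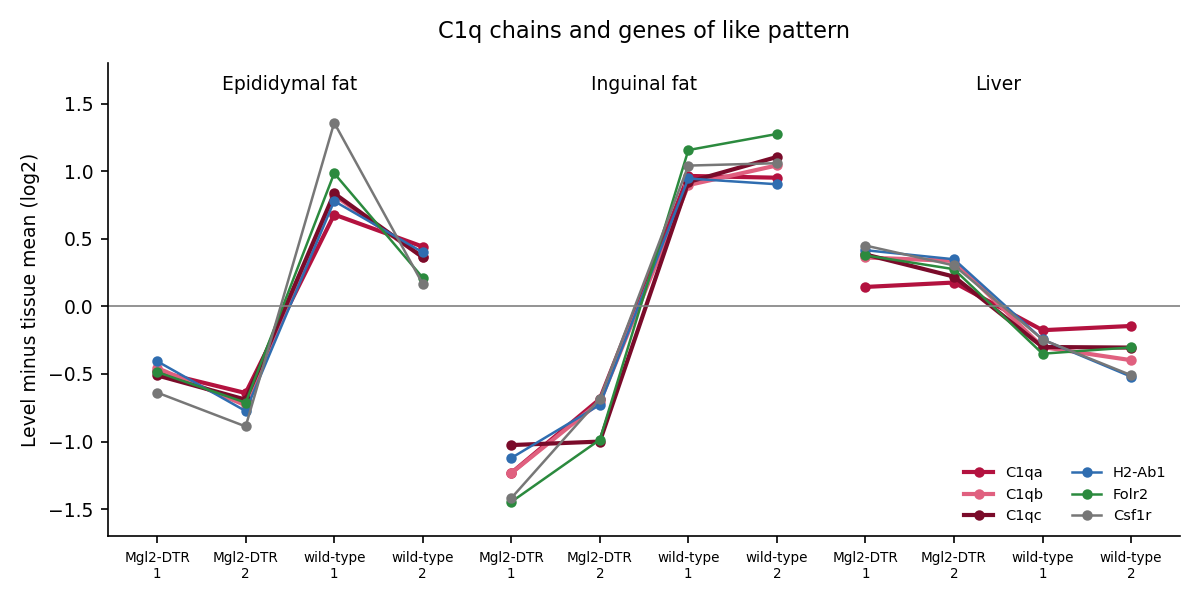
Log2 level minus the mean of the 4 arrays of the tissue, for the 3 C1q chains in reds, H2-Ab1 in blue, Folr2 in green and Csf1r in grey, with 1 point per array. Lines join arrays of a tissue only to guide the eye. All 6 genes are below their tissue mean in Mgl2-DTR fat and above it in Mgl2-DTR liver.

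In wild-type mice the chains were lower in liver than in fat, unlike most complement genes. Wild-type liver minus the mean of both wild-type depots was -1.09 for C1qa (SE 0.16), -1.54 for C1qb (SE 0.18) and -1.25 for C1qc (SE 0.15), or 2.12-fold, 2.91-fold and 2.38-fold lower. Among the 44 other complement genes tested, 29 were higher and 9 lower in liver by limma, where 57.1% of all 12710 genes were called, 23.2% higher and 34.0% lower. Their median difference was 1.64, against -0.13 for all genes. Of 9 classical pathway genes 6 were higher in liver and none lower, among them C4bp, a C4b-binding inhibitor (7.49, SE 1.45; adjusted p = 0.00178), C1rl (3.02, SE 0.14; adjusted p = 9.77e-08), C4a (2.42, SE 0.31; adjusted p = 0.000132) and C1ra (1.14, SE 0.20; adjusted p = 0.00111). All 7 lectin pathway genes were higher, led by Mbl1, a mannose-binding lectin (5.66, SE 0.21; adjusted p = 1.88e-08), and Masp1, its protease (5.10, SE 0.16; adjusted p = 6.99e-09). Of 7 terminal genes 6 were higher, Hc, which encodes C5, by 7.57 (SE 0.18; adjusted p = 1.30e-09) and C9 by 7.13 (SE 0.17; adjusted p = 1.24e-09). The exception was C7, lower by 5.08 in liver (log2 difference -5.08; adjusted p = 5.36e-07), named after its value was seen. Cfi (7.30), Cfhr2 (6.36) and Cfb (1.29) were higher as well, and Cfp was lower (-1.13, SE 0.25; adjusted p = 0.00343).

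Genes lower in liver, like the chains, were common, and all 6 adipocyte markers were among them. Of 15 macrophage markers 12 were lower in liver and 0 higher, and Lyz2 at -2.99 (SE 0.25; adjusted p = 7.18e-06) and Cd68 at -2.42 (SE 0.34; adjusted p = 0.000238) were lowest. Of 7 receptors 5 were lower, Itgam at -4.10 (SE 0.40; adjusted p = 1.93e-05) and C3ar1 at -3.46 (SE 0.38; adjusted p = 5.14e-05) among them, and Vsig4 was higher by 3.89 (SE 0.23; adjusted p = 5.49e-07). All 5 Kupffer markers were higher in liver, from 1.76 for Marco to 4.06 for Clec4f (adjusted p = 1.32e-08). In the C1q domain family 11 of 14 were lower in liver, with Adipoq at -5.32 (SE 0.32; adjusted p = 7.03e-07), and 1 was higher, C1qtnf4 at 0.47 (adjusted p = 0.0153). Between the wild-type depots, inguinal minus epididymal, the chains differed by 0.16 for C1qa, -0.38 for C1qb and -0.074 for C1qc (SE 0.18, 0.21 and 0.17). Of the 44 complement genes 2 were called there, both lower in inguinal fat, where 1.49% of all genes were called.

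**Figure D5:**
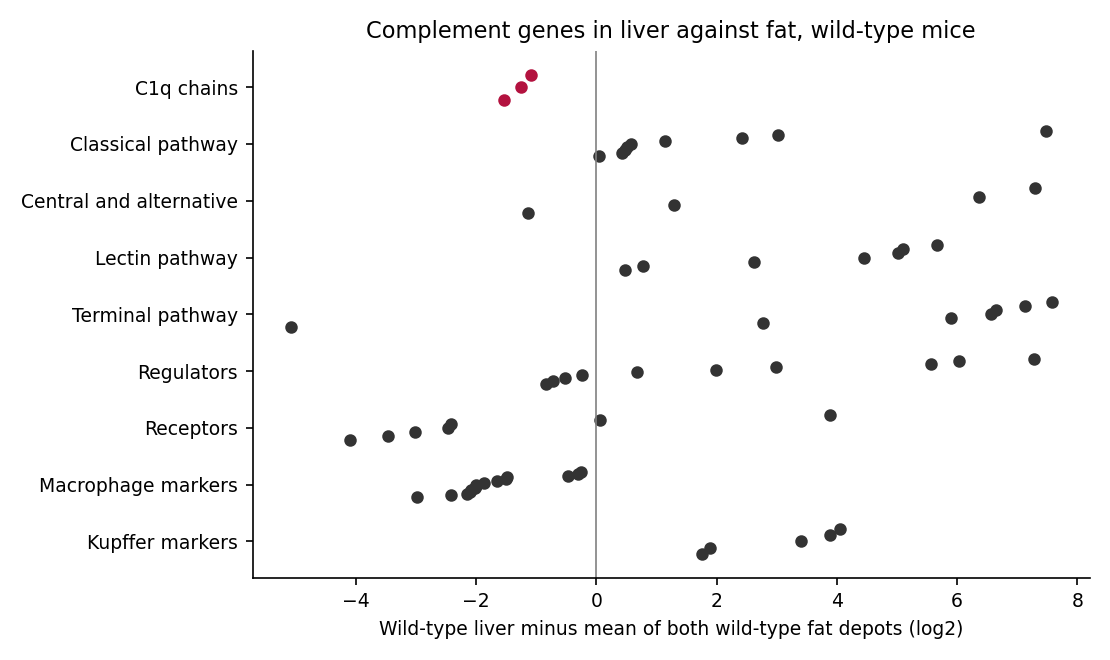
Wild-type liver minus the mean of both wild-type fat depots on the log2 scale, 1 point per tested gene, for the C1q chains in red and 8 gene lists in black, with no error shown. The 3 chains lie at -1.09 to -1.54, among the macrophage markers, while most lectin and terminal pathway genes lie above 2.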

How the data were processed

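RNA of 12 samples (3 tissues by 2 genotypes, 2 arrays each) was labelled with the GeneChip WT PLUS kit, per the labels' protocols. The deposited values are normalized log2 levels for 41345 probes, with array medians of 5.19 to 5.28. Limma is named in the submitters' processing notes. How the arrays were background corrected, normalized and summarized is not stated there.

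Probes with 1 symbol in the platform annotation numbered 23521 (1814 had several, 16010 none listed) and covered 22180 genes. The probe with the highest mean over 12 arrays stood for each gene. A gene was kept where its average over the 4 arrays of any tissue was above 5.71 (the median of these probes' values), which left 12710.

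Limma 3.58.1 in R 4.3.3 was fitted on all 12 arrays with 1 mean per group (6 residual and 3.35 prior degrees of freedom), two-sided, with Benjamini-Hochberg adjustment over all genes tested and calls at an adjusted p under 0.05. The labels name no separate animals, so p-values reflect only how far the samples differ, which may be technical. An exact permutation test of 2 against 2 arrays cannot go below 0.333. The model was tested on simulated data.

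The members and gene lists were chosen with earlier results of these data known. Named genes are the chains, Mgl2, up to 4 called members of each list per comparison or the 2 with the smallest p, the 10 nearest patterns and the nearest genes on the chromosome. Alternatives were other filters, normalizations, probes, variance models, a replicate block, 1 tissue alone and leaving out each array.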

Additional observations from a re-analysis of the deposited data

Results flagged for a closer look

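The C1q chains differed between tissues in the direction of their change. On all 4 pairs of arrays in each fat depot Mgl2-DTR was lower than wild-type, and on all 4 pairs in liver it was higher. The change in liver exceeded the average of the 2 depot changes by 1.84 for C1qa, 2.26 for C1qb and 2.22 for C1qc on the log2 scale, and this difference was not tested, since the genes were chosen for it.

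By limma's test of the difference itself, of the listed genes Mgl2 (3.03, SE 0.30; adjusted p = 0.0107) and Vsig4 (2.26, SE 0.32; adjusted p = 0.0254) also differed between liver and fat. Mgl2 was under the filter level in liver of both genotypes and could hardly fall there. Its call therefore restates its lower level in Mgl2-DTR fat. The Vsig4 call was lost with the replicate block, without the muscle-bearing arrays, and when any 1 of 7 arrays was left out: epididymal Mgl2-DTR replicate 2, either inguinal wild-type array or any liver array. Groups of 2 arrays are too small to look for single outlying samples.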

How the results depend on the processing

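The C1q chains kept their direction in all 3 tissues under each alternative, but most alternatives could not change it. The genotypes did not overlap for any chain, so leaving out arrays could not reverse a sign. Filters, probe choice, a replicate block and 1 tissue alone leave these estimates as they are. Without 2 epididymal arrays, wild-type replicate 1 and Mgl2-DTR replicate 2, the epididymal differences were -0.92 for C1qa, -0.82 for C1qb and -0.87 for C1qc. Without the 2 muscle-bearing inguinal arrays the inguinal differences were -1.65 for C1qa and -1.61 for C1qb. Leaving out 1 array at a time gave -1.24 to -1.003, -1.42 to -0.96 and -1.44 to -0.96 in epididymal fat, -2.19 to -1.64, -2.21 to -1.68 and -2.12 to -1.93 in inguinal fat, and 0.30 to 0.34, 0.65 to 0.75 and 0.52 to 0.69 in liver, for C1qa, C1qb and C1qc. Chains minus macrophage markers were -0.57 in epididymal fat without its 2 arrays and -1.28 in inguinal fat without the muscle-bearing ones, and 0.043 and -0.49 against Csf1r, Adgre1 and Cd68. With 1 array left out they ranged from -0.50 to 0.13, from -1.27 to -0.76 and from -0.11 to 0.040 in epididymal fat, inguinal fat and liver.

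Counts of called genes were unstable, and the cause was not tested. The 4 calls in epididymal fat became 1 with no filter, quantile normalization, array weights or no muscle-bearing arrays, and 0 with the stricter filter (484 at an unadjusted p under 0.05) or this tissue alone (285). With 1 array left out there were 0 (Mgl2-DTR replicate 2 left out) to 763 (wild-type replicate 2 left out), and omitting Mgl2-DTR replicate 1 gave 249. The 25 inguinal calls became 55 with array weights, 4 from this tissue alone, 0 without the muscle-bearing arrays (479 at an unadjusted p under 0.05) and 44 without the 2 epididymal arrays, and 6 (without wild-type replicate 2) to 38 without 1 array. The 9 liver calls became 1 without the muscle-bearing arrays and 3 to 14 without 1 array. For inguinal minus epididymal change there were 0 calls, 2 without the 2 epididymal arrays, and 0 to 123 without 1. The 30 calls for liver against both depots became 0 without the muscle-bearing arrays and 0 to 244 without 1. Between wild-type depots 190 became 125 with the stricter filter, 34 without the muscle-bearing arrays and 73 to 1445 without 1. For wild-type liver against fat 7262 became 4811 with the stricter filter and 5673 to 7297 without 1.

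Complement calls without 1 array were 0 to 6 in epididymal fat, 0 to 1 in inguinal fat, 0 to 0 in liver, 0 to 2 between depot changes, 0 to 4 for liver against depots, 0 to 9 between wild-type depots and 32 to 40 for wild-type liver against fat. The single call for liver against depots, Vsig4, was 0 without the muscle-bearing arrays. The 2 between wild-type depots became 1 with no filter, quantile normalization, cyclic loess or array weights, and 0 without the muscle-bearing arrays.

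Within a tissue, same-numbered Mgl2-DTR and wild-type arrays showed little sign of pairing. Their deviations correlated at 0.053, -0.12 and 0.088 in epididymal fat, inguinal fat and liver. The muscle-bearing inguinal arrays carry different replicate numbers, which can lower the inguinal value. Labels do not say whether the same mouse gave several tissues, and these values cannot show it. With the replicate block the calls were 1 in epididymal fat, 19 in inguinal fat, 2 in liver, and 14 with 0 complement genes for liver against depots. A block with inguinal numbers crossed, chosen after seeing the data, gave 1, 18, 1, and 17 with 0 complement genes. The alternatives that leave out 2 arrays were also chosen after seeing the data.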
